A study of Homo sapiens with 4 samples.

Results

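The genes described here are 50 named genes that move chromosomes and cargo along microtubules or divide the cell: 32 kinesins, 12 other spindle proteins and 6 cytokinesis proteins. They were found by gene name in a table of 6828 genes, which lists 44 of the 50 (27 of the 32 kinesins). KIF5A, KIF9, KIF13B, KIF15, KIFC1 and NUSAP1 have no row and were not analysed here. The table holds only genes with an adjusted p under 0.05 in the study's own test of the same libraries, so each of the 44 had already passed a test of this comparison.

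RNA was sequenced from A549, an epithelial line from a human lung adenocarcinoma, in which lentivirus drove either a control shRNA (shctrl, 2 libraries) or an shRNA against the long noncoding RNA USP2-AS1 (shUSP2-AS1, 2 libraries). Both groups thus carry a lentiviral vector and an shRNA, and RNA was taken 72 h after infection. The study's general lentivirus methods state that infected cells were selected with puromycin (2 ug/ml) before use, which both groups would share. Which of the study's USP2-AS1 shRNAs was used is not given in the sources used here, so an effect of 1 hairpin sequence and an effect of losing USP2-AS1 cannot be told apart. The comparison asks which genes change when USP2-AS1 is depleted, and within these genes how the kinesins of mitosis differ from the kinesins of transport.

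Values are normalized read counts, the reads on a gene divided by a size factor of the library. The libraries held 10772788 to 14120472 reads on the listed genes, and 1 read was worth between 0.880 and 1.10 normalized reads. USP2-AS1 itself, the check of the knockdown, had 24 and 22 reads in shctrl and 2 and 7 in shUSP2-AS1 (23.7 ± 0.698 against 4.13 ± 2.87 normalized reads, mean ± SD, n = 2; log2 fold change -2.39, SE 0.56, adjusted p = 0.000597), which rests on few reads. The log2 fold change was -1.78 without the first shUSP2-AS1 library and -2.99 without the second. Of the epithelial keratins, KRT7, KRT8, KRT18 and KRT19 are listed in all 4 libraries and differed between the groups. KRT8 had 87504 and 79777 normalized reads in shctrl and 48220 and 49976 in shUSP2-AS1. KRT18 had 30473 and 29565 against 14145 and 14811, KRT7 had 57568 and 55535 against 38282 and 42083, and KRT19 had 3699 and 3254 against 5689 and 5952. The mesenchymal collagen gene COL1A1 had 261 and 293 in shctrl and 530.0 and 618 in shUSP2-AS1. The part of these markers in the results was not tested. EPCAM, CDH1, VIM, COL3A1, PTPRC, CD3E and PECAM1, the other markers looked for, have no row.

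Kinesins are motor proteins that use ATP to walk along microtubules or to take their ends apart. During mitosis one set of them pushes the spindle poles apart, moves chromosomes and builds the central spindle, while another set works through the whole cell cycle and hauls vesicles, mitochondria and other organelles toward the cell edge. The spindle proteins listed here nucleate, crosslink or stabilise spindle microtubules, and the cytokinesis proteins turn the central spindle and the actomyosin ring into 2 separate cells. Messenger RNAs of many mitotic genes are made mainly in the G2 and M phases of the cell cycle, so in bulk RNA a smaller share of dividing cells and less mRNA in each dividing cell cannot be told apart.

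The mRNAs of the cell-division genes fell in shUSP2-AS1 cells, whereas most transport kinesins, like most genes tested (4792 of 6812), were not called. Of the 44 genes tested, 31 fell, 1 rose and 12 were not called, where a call needs an adjusted p under 0.05 and a fold change of at least 2. Over all 6812 genes tested in the table, 13.5% were lower, 16.1% higher and 29.7% either, by the same rule. The 30 named genes of mitotic kinesins, spindle and cytokinesis gave 27 with a row, of which 26 fell and none rose (all 27 estimates were negative, and edgeR and DESeq2 also called none higher), with a median log2 fold change of -2.06. Of the 14 transport kinesins with a row, 3 fell (21.4%), 1 rose (7.14%) and 10 were not called. Their median log2 fold change was -0.30, while the median of all genes tested was 0.19. These medians move with the choices made. That of all genes was 0.069 with RLE scaling (DESeq2's size factors from the listed genes) and -0.18 among genes with a mean of at least 50. That of the transport kinesins was -0.42 with RLE scaling and -0.059 without KIF21A, KIF21B, KIFC2 and KIFC3. DESeq2 called 1139 of all genes lower and 942 higher, against 922 and 1098 in the reported test. The mitotic kinesin median minus the transport kinesin median was -1.78 on the log2 scale. Its SD was 0.0974 over the 4 pairings of 1 shctrl with 1 shUSP2-AS1 library, which share libraries and are not independent. The difference was -1.70 with KIF2A and KIF24 counted among the mitotic kinesins. It was -2.03 without KIF21A, KIF21B, KIFC2 and KIFC3. The groups of libraries did not overlap for any of the 44 genes, but neither did they for 6811 of all 6812 genes tested (100%), as follows from how the table was selected. Without the fold threshold, 49.4% of genes tested were lower and 50.6% higher, and 9 transport kinesins were lower and 5 higher.

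**Figure D1:**
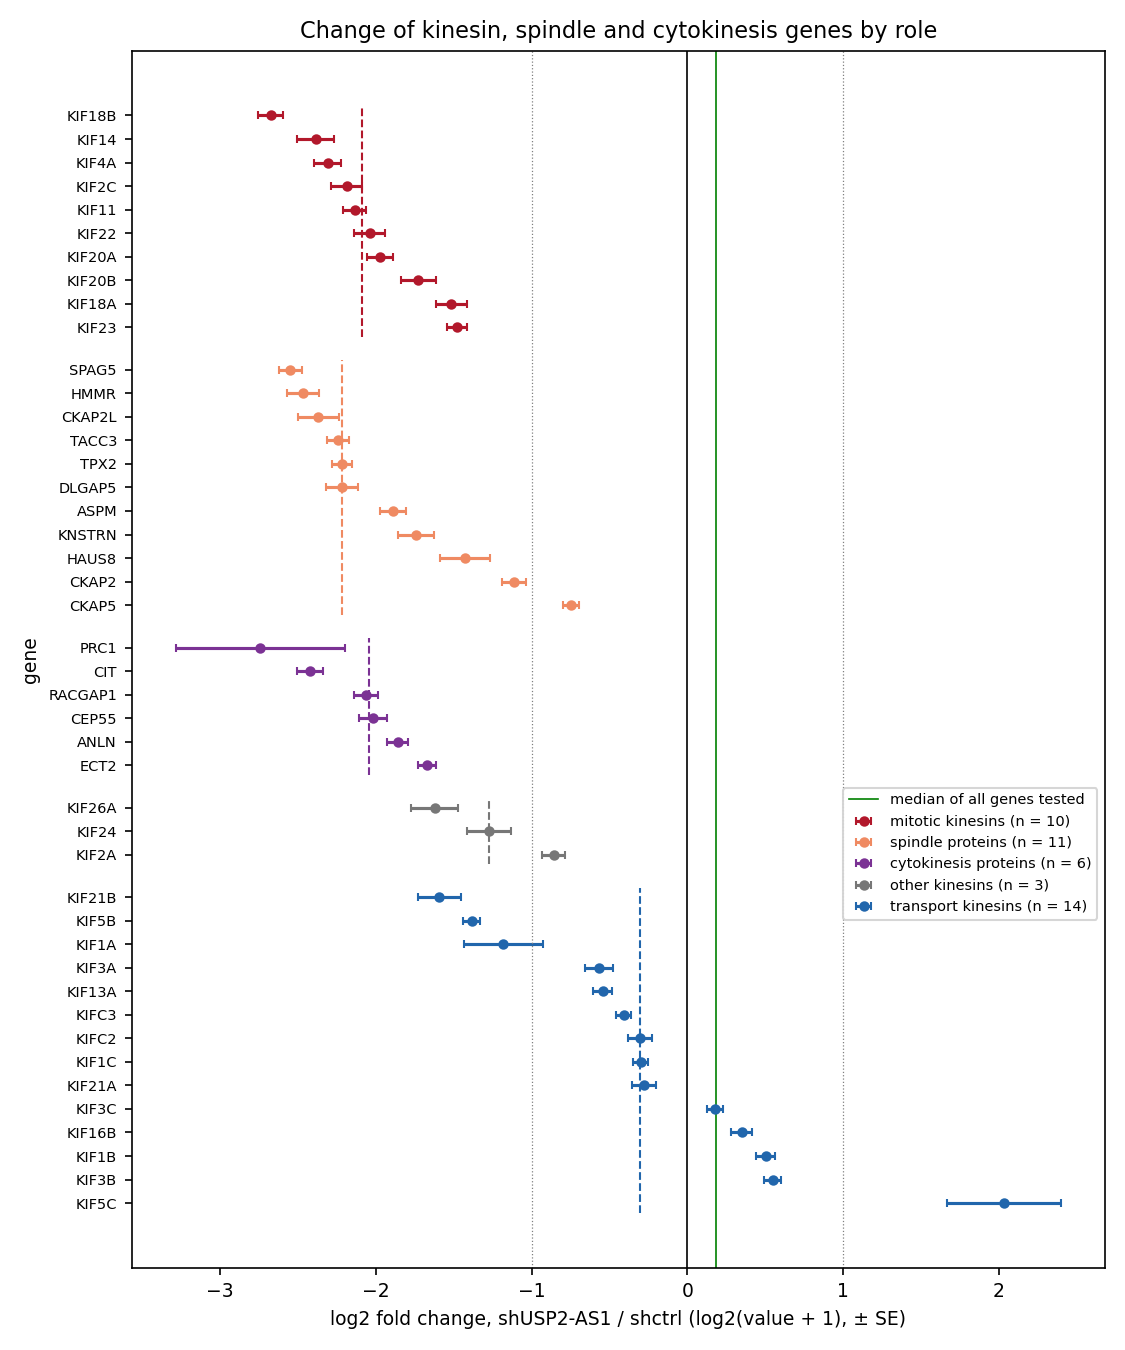
Log2 fold change of shUSP2-AS1 against shctrl (x axis) for each of the 44 genes (y axis), grouped and coloured by role; points are limma estimates, bars are the standard error, dotted lines mark a fold change of 2, short dashed lines the median of each role and the green line the median of all genes tested (0.19). The mitotic kinesins, spindle proteins and cytokinesis proteins lie at or below -0.75, and the transport kinesins spread from -1.59 to 2.03 around their median of -0.30.

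All 10 mitotic kinesins with a row fell, to between 15.6% and 35.8% of their shctrl level, with log2 fold changes from -2.67 to -1.48. KIF2A, a spindle-pole depolymerase placed here under the other kinesins, was not called (log2 fold change -0.86). KIF18B, a plus-end motor that limits the length of astral microtubules, had 1711 and 1714 normalized reads in shctrl and 252 and 283 in shUSP2-AS1 (log2 fold change -2.67, SE 0.08, adjusted p = 1.09e-14). KIF14, which works with citron kinase in late cytokinesis, had 768 and 925 normalized reads in shctrl and 146 and 176 in shUSP2-AS1 (log2 fold change -2.39, SE 0.12, adjusted p = 3.96e-12). KIF4A, a chromokinesin that also sets the length of the central spindle, had 1236 and 1247 normalized reads in shctrl and 239 and 261 in shUSP2-AS1 (log2 fold change -2.31, SE 0.08, adjusted p = 1.14e-13). These 3 had the lowest fold changes of the group. Their groups of libraries did not overlap, as held for 6811 of all 6812 genes tested.

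KIF2C (MCAK), which depolymerises microtubules at kinetochores to free wrong attachments, had 874 and 800.0 normalized reads in shctrl and 188 and 178 in shUSP2-AS1 (log2 fold change -2.19, SE 0.10, adjusted p = 1.23e-12). KIF11 (Eg5), the plus-end motor that pushes the spindle poles apart, had 1664 and 1799 normalized reads in shctrl and 384 and 403 in shUSP2-AS1 (log2 fold change -2.13, SE 0.07, adjusted p = 5.66e-14). The chromokinesin KIF22, which pushes chromosome arms away from the poles, had 1567 and 1451 normalized reads in shctrl and 321 and 418 in shUSP2-AS1 (log2 fold change -2.04, SE 0.10, adjusted p = 4.37e-12). Of these 3, KIF22 had the widest gap between its shUSP2-AS1 libraries, and both still lay far under shctrl.

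KIF20A (MKLP2), which carries the chromosomal passenger complex to the central spindle, had 1223 and 1265 normalized reads in shctrl and 302 and 332 in shUSP2-AS1 (log2 fold change -1.97, SE 0.08, adjusted p = 4.93e-13). Its relative KIF20B had 801 and 823 normalized reads in shctrl and 213 and 281 in shUSP2-AS1 (log2 fold change -1.73, SE 0.11, adjusted p = 1.8e-10). KIF18A, which dampens chromosome movement so that chromosomes line up at the spindle equator, had 599 and 622 normalized reads in shctrl and 223 and 203 in shUSP2-AS1 (log2 fold change -1.52, SE 0.10, adjusted p = 2.32e-10). KIF23 (MKLP1), the motor of the centralspindlin complex, had 2161 and 2196 normalized reads in shctrl and 752 and 809 in shUSP2-AS1 (log2 fold change -1.48, SE 0.06, adjusted p = 7.69e-13). KIF23 had the highest fold change of the group and still lay at 35.8% of its shctrl mean. KIF4A has a near-identical copy, KIF4B, and how the counting split reads between them is not given in the sources used here. Of 12 further kinesin genes outside the 50, only CENPE has a row. This kinetochore motor, which brings chromosomes to the equator, also fell, with 553 and 609 normalized reads in shctrl and 141 and 142 in shUSP2-AS1 (log2 fold change -2.03, SE 0.11, adjusted p = 1.59e-11).

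**Figure D2:**
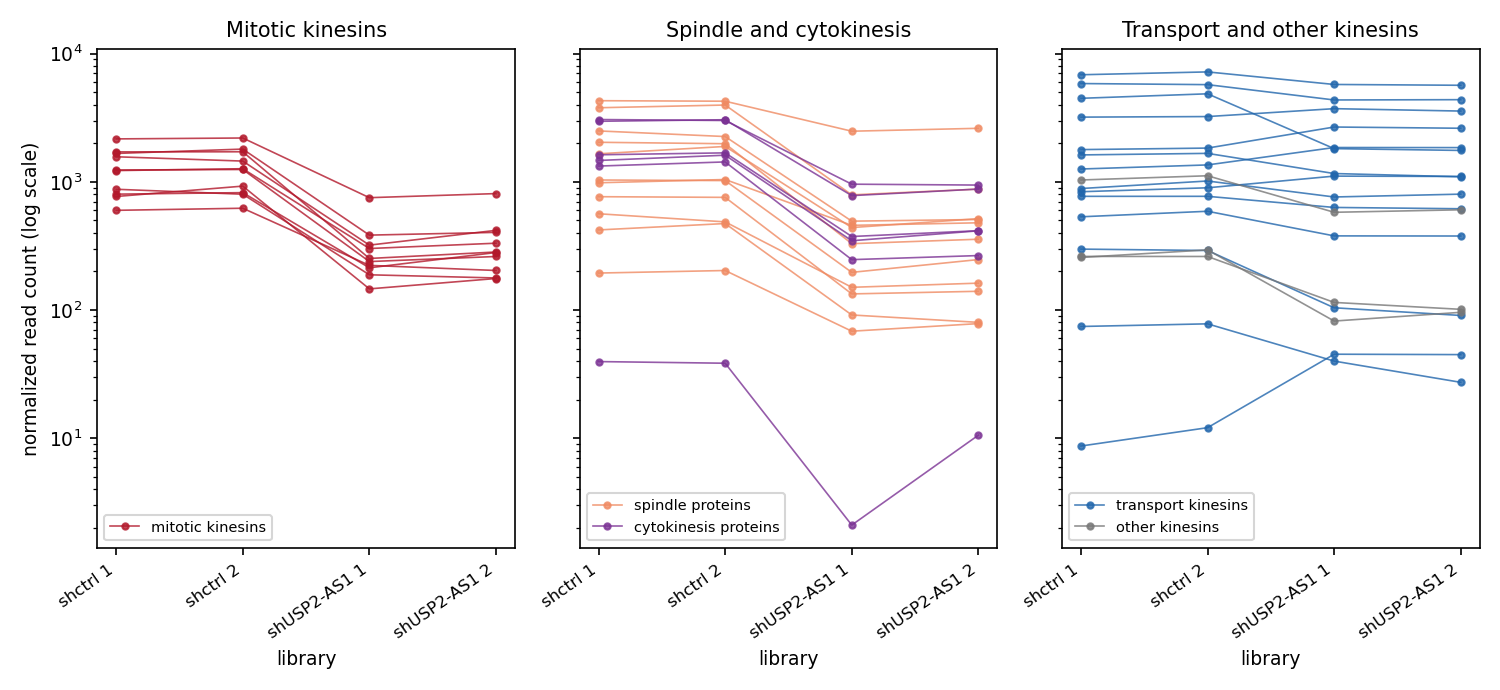
Normalized read counts (log10 y axis) of the 44 genes in the 2 shctrl and 2 shUSP2-AS1 libraries, in a panel each for the mitotic kinesins, the spindle and cytokinesis proteins and the transport and other kinesins, each line joining the 4 values of 1 gene. Lines drop between the groups in the first pair of panels and stay nearly flat for most transport kinesins, with KIF5C rising from 8.70 and 12.1 to 45.2 and 44.9.

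Of the 11 spindle proteins with a row, 10 fell and CKAP5 was not called, with a median log2 fold change of -2.21. SPAG5 (astrin), which holds sister chromatids and spindle poles together, had 2033 and 1981 normalized reads in shctrl and 329 and 357 in shUSP2-AS1 (log2 fold change -2.55, SE 0.07, adjusted p = 8.08e-15). HMMR, which binds microtubules and helps to focus spindle poles, had 765 and 756 normalized reads in shctrl and 134 and 140.0 in shUSP2-AS1 (log2 fold change -2.47, SE 0.10, adjusted p = 5.09e-13). CKAP2L, a spindle-associated protein, had 421 and 473 normalized reads in shctrl and 91.5 and 80.1 in shUSP2-AS1 (log2 fold change -2.37, SE 0.13, adjusted p = 2.82e-11). TACC3, which together with clathrin and CKAP5 crosslinks the fibres that reach kinetochores, had 2493 and 2254 normalized reads in shctrl and 493 and 508 in shUSP2-AS1 (log2 fold change -2.24, SE 0.07, adjusted p = 1.36e-14). The shUSP2-AS1 means of these 4 were at 17.1% to 21.1% of the shctrl mean.

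TPX2, which activates Aurora A and seeds microtubules near chromosomes, had 3780 and 3969 normalized reads in shctrl and 791 and 877 in shUSP2-AS1 (log2 fold change -2.22, SE 0.06, adjusted p = 7.1e-15). ASPM at the spindle poles and DLGAP5, which stabilises kinetochore fibres, had log2 fold changes of -1.89 and -2.21. KNSTRN, a partner of SPAG5 at kinetochores, had 563 and 487 normalized reads in shctrl and 150.4 and 162 in shUSP2-AS1 (log2 fold change -1.74, SE 0.11, adjusted p = 2.2e-10). HAUS8, a subunit of the augmin complex that branches new microtubules off old ones, had 194 and 203 normalized reads in shctrl and 68.4 and 78.4 in shUSP2-AS1 (log2 fold change -1.43, SE 0.16, adjusted p = 2.39e-07). CKAP2, which binds spindle microtubules, had 983 and 1042 normalized reads in shctrl and 457 and 479 in shUSP2-AS1 (log2 fold change -1.11, SE 0.08, adjusted p = 4.58e-10). CKAP5 (chTOG), a microtubule polymerase that is also used outside mitosis, had 4290 and 4251 normalized reads in shctrl and 2481 and 2613 in shUSP2-AS1 (log2 fold change -0.75, SE 0.05, adjusted p = 4.65e-10). CKAP5 passed the test of the adjusted p but not the fold threshold, and its shUSP2-AS1 mean was 59.6% of the shctrl mean. The pair CKAP5 and TACC3, which work together on the spindle, thus moved by different amounts. Per kilobase of gene length CKAP5 reads were 1.65 and 1.81 times TACC3 reads in shctrl and 4.82 and 4.93 times in shUSP2-AS1.

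All 6 cytokinesis proteins fell, with a median log2 fold change of -2.04. CIT (citron kinase), which matures the midbody, had 1327 and 1429 normalized reads in shctrl and 247 and 266 in shUSP2-AS1 (log2 fold change -2.42, SE 0.08, adjusted p = 5.43e-14). RACGAP1, the GTPase-activating partner of KIF23 in centralspindlin, had 1624 and 1681 normalized reads in shctrl and 374 and 416 in shUSP2-AS1 (log2 fold change -2.06, SE 0.08, adjusted p = 1.16e-13). CEP55, which recruits the ESCRT proteins that cut the last bridge, had 1467 and 1612 normalized reads in shctrl and 347 and 415 in shUSP2-AS1 (log2 fold change -2.02, SE 0.09, adjusted p = 8.95e-13). The fold changes of these 3 lay at -2.42 to -2.02, inside the range of the mitotic kinesins.

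ANLN (anillin), the scaffold of the contractile ring, had 2964 and 3049 normalized reads in shctrl and 780.3 and 878 in shUSP2-AS1 (log2 fold change -1.86, SE 0.07, adjusted p = 6.41e-14). ECT2, the exchange factor that switches on RhoA at the cell equator, had 3059 and 3007 normalized reads in shctrl and 958 and 943 in shUSP2-AS1 (log2 fold change -1.67, SE 0.06, adjusted p = 5.11e-14). PRC1, which bundles the antiparallel microtubules of the central spindle, had only 39.6 and 38.5 normalized reads in shctrl and 2.10 and 10.6 in shUSP2-AS1 (log2 fold change -2.74, SE 0.54, adjusted p = 0.000129). This came from 41, 35, 2 and 12 reads. Its log2 fold change was -1.79 without the first shUSP2-AS1 library and -3.69 without the second. PRC1 also shares 57.6% of its exonic bases with an overlapping protein-coding gene on its strand, AC068831.6, and 34.3% with the antisense gene PRC1-AS1, so its reads may be split or left out by the counting. The overlapping gene itself had 122 and 106 normalized reads in shctrl and 30.5 and 27.3 in shUSP2-AS1, also a fall (log2 fold change -1.94, SE 0.23, adjusted p = 3.92e-07). The partners of centralspindlin did not fall by equal amounts. Per kilobase, KIF23 reads were 0.908 and 0.891 times RACGAP1 reads in shctrl and 1.37 and 1.33 times in shUSP2-AS1.

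Among the transport kinesins 3 fell. KIF21B, which slows microtubule growth, had 299 and 291 normalized reads in shctrl and 104 and 90.7 in shUSP2-AS1 (log2 fold change -1.59, SE 0.14, adjusted p = 9.1e-09). KIF5B, the heavy chain of the kinesin-1 motor found in nearly all cells, had 4479 and 4855 normalized reads in shctrl and 1814 and 1756 in shUSP2-AS1 (log2 fold change -1.38, SE 0.06, adjusted p = 3.41e-13). KIF1A, a fast motor of dense-core and synaptic vesicles, had 74.4 and 78.0 normalized reads in shctrl and 39.96 and 27.3 in shUSP2-AS1 (log2 fold change -1.18, SE 0.26, adjusted p = 0.000289), on 77 reads or fewer a library. Without the second shUSP2-AS1 library KIF1A had a log2 fold change of -0.91 and was no longer called.

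KIF5C, the kinesin-1 heavy chain best known from neurons, was the only gene of the 44 called higher. It had 8.70 and 12.1 normalized reads in shctrl and 45.2 and 44.9 in shUSP2-AS1 (log2 fold change 2.03, SE 0.36, adjusted p = 4.86e-05). These values rest on 9, 11, 43 and 51 reads. Its level stayed far under that of KIF5B. Per kilobase KIF5B reads were 811 and 633 times KIF5C reads in shctrl, where KIF5C has only 9 and 11 reads, and 63.2 and 61.6 times in shUSP2-AS1.

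The other transport kinesins passed the adjusted p but not the fold threshold. KIF3A and KIF3B, which pair as the kinesin-2 motor of cilia and vesicles, had opposite signs. KIF3A had 533 and 589 normalized reads in shctrl and 379 and 378 in shUSP2-AS1 (log2 fold change -0.57, SE 0.09, adjusted p = 1.56e-05). KIF3B had 1783 and 1832 normalized reads in shctrl and 2674 and 2616 in shUSP2-AS1 (log2 fold change 0.55, SE 0.05, adjusted p = 4.74e-08). KIF3C, the other partner of KIF3A, had 3194 and 3227 normalized reads in shctrl and 3718 and 3561 in shUSP2-AS1 (log2 fold change 0.18, SE 0.05, adjusted p = 0.00263), which is close to the median of all genes tested. With RLE scaling and in DESeq2 its adjusted p was 0.217 and 0.326, so the count of 5 higher without a fold threshold rests in part on the scaling. Per kilobase, KIF3B reads were 3.75 and 3.49 times those of KIF3A in shctrl and 7.92 and 7.77 times in shUSP2-AS1. KIF1B, a carrier of mitochondria and of synaptic vesicle precursors, had 1258 and 1354 normalized reads in shctrl and 1851 and 1848 in shUSP2-AS1 (log2 fold change 0.50, SE 0.06, adjusted p = 5.81e-07). KIF16B, which moves early endosomes, had 837 and 898 normalized reads in shctrl and 1107 and 1101 in shUSP2-AS1 (log2 fold change 0.35, SE 0.07, adjusted p = 0.000124). KIF3B, KIF3C, KIF1B, KIF16B and KIF5C were thus the 5 transport kinesins with a positive estimate, and 4 of them were not called. None of the 44 genes changed sign under another scaling of the libraries, and KIF3C, the nearest to 0, lay between 0.07 and 0.24.

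KIF1C, KIF13A, KIF21A, KIFC2 and KIFC3 had log2 fold changes from -0.54 (KIF13A) to -0.28 (KIF21A) and were not called. Without the second shctrl library KIF21A had an adjusted p of 0.0536 by limma. KIF1C, which carries integrins and Golgi vesicles, had 6836 and 7195 normalized reads in shctrl and 5743 and 5659 in shUSP2-AS1. KIFC3, a minus-end motor of the Golgi and of cell junctions, had 5838 and 5725 normalized reads in shctrl and 4347 and 4370 in shUSP2-AS1. KIFC2 shares 17.8% of its exonic bases with FOXH1 on the opposite strand, and the strand setting of the counting is not given in the sources used here.

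Of the 3 remaining kinesins with a row, 2 fell. KIF26A, a kinesin that has lost its ATPase activity, had 257 and 295 normalized reads in shctrl and 82.0 and 96.0 in shUSP2-AS1 (log2 fold change -1.62, SE 0.15, adjusted p = 1.7e-08). KIF24, which acts on centrioles and restrains cilium formation, had 262 and 262 normalized reads in shctrl and 115 and 101 in shUSP2-AS1 (log2 fold change -1.27, SE 0.14, adjusted p = 1.56e-07). KIF2A, a depolymerase at spindle poles and in growing axons, had 1033 and 1114 normalized reads in shctrl and 578 and 605 in shUSP2-AS1 (log2 fold change -0.86, SE 0.07, adjusted p = 8.16e-09) and was not called. Of this gene, 18.7% of the exonic bases lie in DIMT1 on the opposite strand. With these 3, 15 of the 27 kinesins with a row fell, 1 rose and 11 were not called.

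As shares of the summed reads per kilobase of the 27 listed kinesins among the 50 genes (so without CENPE and the 5 kinesins with no row), the mitotic kinesins went from 40.3% and 39.6% in shctrl to 16.0% and 17.6% in shUSP2-AS1, and the transport kinesins from 57.2% and 57.8% to 82.0% and 80.4%. The summed level of the 10 mitotic kinesins was 2583 ± 20.2 normalized reads per kilobase in shctrl and 632 ± 43.4 in shUSP2-AS1 (mean ± SD, n = 2). The summed level of the 14 transport kinesins was 3724 ± 103 in shctrl and 3058 ± 42.0 in shUSP2-AS1. Transport kinesin reads were 1.42 and 1.46 times mitotic kinesin reads in shctrl and 5.13 and 4.57 times in shUSP2-AS1. Within the transport sum KIF5B made up 20.9% and 21.8% in shctrl and 10.0% and 9.89% in shUSP2-AS1.

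**Figure D3:**
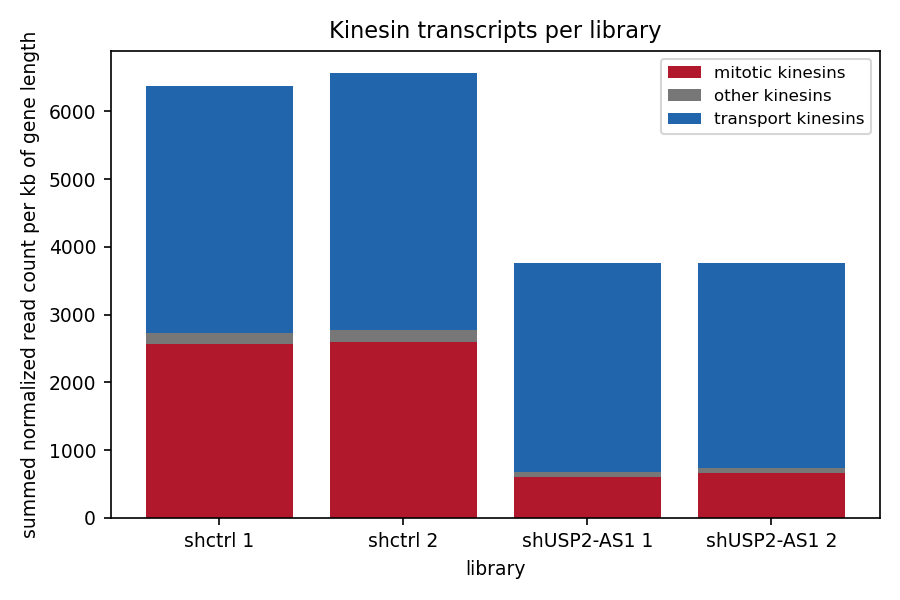
Summed normalized read counts per kilobase of the kinesins in each of the 4 libraries, as stacked bars from 0 with mitotic kinesins at the bottom, other kinesins between and transport kinesins on top. The mitotic segment makes up 40.3% and 39.6% of the bar in shctrl and 16.0% and 17.6% in shUSP2-AS1.

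The order of the levels changed with it. Per kilobase, TPX2 was the first of the 44 in shctrl (1075 normalized reads per kilobase) and place 7 in shUSP2-AS1 (231). KIF1C went from the second place to the first (818 and 665). KIF3B went from place 17 to place 4, and KIF16B from 31 to 9. KIF18B went from 12 to 25, and SPAG5 from 10 to 22. In shUSP2-AS1 the 5 highest genes, KIF1C, KIF3C, KIFC3, KIF3B and KIF5B, were all transport kinesins. Neighbours in the order can lie within their spread: in shctrl KIF3C, ANLN and CKAP5 were at 502, 501 and 500.2 per kilobase, closer to each other than the 2 libraries of each gene were.

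Related proteins outside the 50 genes give the setting. Their counts stand beside the 13.5% lower and 16.1% higher over all 6812 genes tested. Of 12 named kinesin light chains and cargo adaptors, 6 have a row (median log2 fold change 0.85). By limma, edgeR or DESeq2, 2 of the 6 rose (33.3%) and none fell. MAPK8IP2 (JIP2), a scaffold that links cargo to kinesin-1, had 170.1 and 177 normalized reads in shctrl and 855 and 769 in shUSP2-AS1 (log2 fold change 2.22, SE 0.10, adjusted p = 1.33e-12). MAPK8IP1 (JIP1), its relative, had 268 and 237 normalized reads in shctrl and 925 and 891 in shUSP2-AS1 (log2 fold change 1.84, SE 0.09, adjusted p = 5.36e-12). KIFAP3, the subunit that ties cargo to the KIF3 motors, had 330.5 and 309 normalized reads in shctrl and 620.4 and 622 in shUSP2-AS1 (log2 fold change 0.96, SE 0.09, adjusted p = 2.53e-08) and was not called. With upper quartile scaling KIFAP3 was called higher (log2 fold change 1.02). All 6 had a positive estimate, as did 3450 of all 6812 genes tested, while the KIF5B heavy chain fell.

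Of 26 named dynein and dynactin genes, which move cargo the opposite way, 15 have a row, 1 fell and none rose, by limma, edgeR or DESeq2, with a median log2 fold change of 0.23 and 9 positive estimates. The 1 that fell was DCTN3, a small dynactin subunit, with 846 and 792 normalized reads in shctrl and 359 and 372 in shUSP2-AS1 (log2 fold change -1.16, SE 0.08, adjusted p = 7.39e-10). The light chain DYNLT3 had 382 and 403 normalized reads in shctrl and 793 and 727 in shUSP2-AS1 (log2 fold change 0.95). The adaptor BICD2 had 1602 and 1713 normalized reads in shctrl and 1066 and 1017 in shUSP2-AS1 (log2 fold change -0.67). Neither was called. The list's median of 0.23 lies beside 0.19 for all genes tested. Its share called lower, 6.67%, was under the 13.5% over all genes tested.

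A wider list of 30 other spindle and microtubule genes gave 25 with a row (median log2 fold change -0.58). Of these, 8 fell (32%, against 13.5% of all genes tested) and 1 rose (4%, against 16.1%). NEDD1, which brings gamma-tubulin to the centrosome and spindle, had 579 and 568 normalized reads in shctrl and 134 and 139 in shUSP2-AS1 (log2 fold change -2.06, SE 0.11, adjusted p = 1.15e-11). FAM83D, which brings casein kinase to the spindle, had 1423 and 1356 normalized reads in shctrl and 331 and 356 in shUSP2-AS1 (log2 fold change -2.01, SE 0.08, adjusted p = 2.13e-13). STMN1 (stathmin), HAUS1, HAUS6, HAUS5, TACC1 and GPSM2 also fell, and 3 of these 6 are augmin subunits like HAUS8. The other 3 augmin subunits with a row on this list were not called, HAUS2 at -0.57, HAUS3 at -0.84 and HAUS4 at -0.57 on the log2 scale. STMN1, which takes tubulin out of use, had 2046 and 1956 normalized reads in shctrl and 442 and 610.1 in shUSP2-AS1 (log2 fold change -1.94, SE 0.10, adjusted p = 1.36e-11). GPSM2 had a log2 fold change of -1.10, and without the second shUSP2-AS1 library it was no longer called (-0.97). The gene that rose, MAPRE3, encodes a plus-end binding protein best known from neurons and muscle and had 510.2 and 455 normalized reads in shctrl and 1461 and 1613 in shUSP2-AS1 (log2 fold change 1.67, SE 0.08, adjusted p = 2.7e-12). Of 24 other cytokinesis genes, 9 have a row, with 4 positive estimates and a median of -0.19. By limma, edgeR or DESeq2, 1 of the 9 fell and none rose. The share that fell, 11.1%, was near the 13.5% over all genes tested. SHCBP1, a partner of centralspindlin, was the one that fell, with 1345 and 1288 normalized reads in shctrl and 259 and 248 in shUSP2-AS1 (log2 fold change -2.37, SE 0.08, adjusted p = 5.43e-14), and the others were not called. Of the nonmuscle myosin heavy chains, used in the ring and all over the cell cortex, MYH9 had 22854 and 24429 normalized reads in shctrl and 44578 and 44086 in shUSP2-AS1 (log2 fold change 0.91). MYH10 had 2020 and 2250 normalized reads in shctrl and 1208 and 1226 in shUSP2-AS1 (log2 fold change -0.81).

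**Figure D4:**
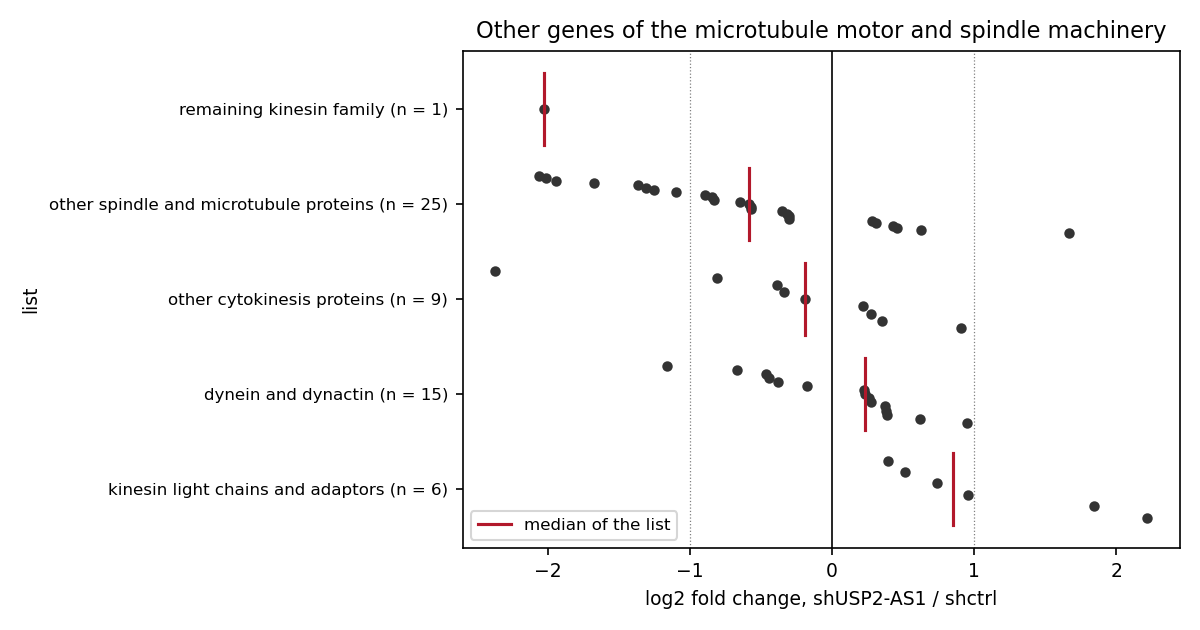
Log2 fold change of shUSP2-AS1 against shctrl for the genes of 5 related lists, each point 1 gene and each bar its list's median, with dotted lines at a fold change of 2. The light chains and adaptors lie above 0 (0.39 to 2.22), and the dynein and dynactin genes run from -1.16 to 0.95.

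Many, but not all, promoters of the cell-division genes hold short sequence elements that the choice of genes did not use. The cell cycle genes homology region (CHR), TTTGAA or its reverse complement TTCAAA, is known as a binding element of the DREAM and MuvB complexes, which repress these genes in resting cells and switch them on in late cell cycle. It is often found a short way downstream of CCAAT boxes, the element of the factor NF-Y. RefSeq promoter windows (GRCh38.p14, from 250 bases before to 50 bases after the transcript start, 300 bases) were found for 43 of the 50 genes, rows or not. RACGAP1, KIF21B, KIFC3, KIF5A, KIFC2, KIF13B and TPX2 had no match, and for the 7 genes with more than 1 window a match in any counts. The lines that follow show the CHR, in capitals, with 12 bases on each side, in the direction of the gene, for 4 mitotic kinesins, 2 spindle genes, 2 cytokinesis genes and for comparison the 1 transport kinesin that holds the element, KIF5B.
KIF11 (chr10:92593090-92593119, plus strand): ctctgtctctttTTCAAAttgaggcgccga
KIF4A (chrX:70290058-70290087, plus strand): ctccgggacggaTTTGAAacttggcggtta
KIF18B (chr17:44947754-44947783, minus strand): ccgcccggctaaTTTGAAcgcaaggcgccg
KIF20B (chr10:89701602-89701631, plus strand): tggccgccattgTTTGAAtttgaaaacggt
HMMR (chr5:163460592-163460621, plus strand): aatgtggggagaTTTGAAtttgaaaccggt
CKAP2L (chr2:112764609-112764638, minus strand): acaggcgcggcgTTTGAAgaaaaactgtca
ANLN (chr7:36389830-36389859, plus strand): ctgaaattcaaaTTTGAAcggctgcagagg
PRC1 (chr15:90994538-90994567, minus strand): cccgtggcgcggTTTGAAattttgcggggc
KIF5B (chr10:32056548-32056577, minus strand): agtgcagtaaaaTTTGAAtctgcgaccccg

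In KIF20B, HMMR and ANLN a second CHR match follows or precedes the first without a gap. The first base of the match lies 28 bases before the start in KIF11 and HMMR, 34 in KIF4A, 17 in CKAP2L and 20 in ANLN and PRC1, and 2 and 24 bases after it in KIF18B and KIF20B, but 140 bases before it in KIF5B.

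A CHR match was present for 9 of 12 mitotic kinesins, 8 of 11 spindle genes and 5 of 5 cytokinesis genes with a window, 22 of 28 together (78.6%), and for 1 of 11 transport kinesins (9.09%) and 0 of 4 other kinesins. Over all 27305 genes with a window the share was 18.2%, and over the 5214 genes tested that matched a window it was 14.0%. Within 40 bases of the start, a distance chosen after the matches were seen, the shares were 20 of 28 (71.4%) for cell division, 0 of 11 for transport and 5.04% for all genes. A CCAAT box on either strand was found for 20 of the 28 (71.4%) and 4 of the 11 transport kinesins (36.4%). Its share was 39.7% over all genes and 43.9% over the genes tested that matched a window. Both elements together were found for 18 of the 28 (64.3%) and for KIF5B alone among the 11 transport kinesins. The share with both was 8.37% over all genes and 7.84% over the genes tested that matched a window.

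An E2F site was taken as TTT and CGC with CC, CG, GC or GG between them, on either strand. It was found for 3 of 28 cell-division genes (10.7%), 0 of 11 transport kinesins, 3.99% of all genes and 6.62% of genes tested. Of the 25 cell-division genes with both a row and a window, 1 held it (4%). None of the 35 CHR matches in these windows overlapped a CCAAT or E2F match. The 35 count 1 ECT2 site once for each of the 2 windows that hold it. The cell-division genes with a window but no CHR match, KIF2C, KIF20A, KIF22, CKAP2, TACC3 and KNSTRN, fell as well, with log2 fold changes from -2.24 to -1.11. KIF2C, CKAP2, TACC3 and KNSTRN held none of the 3 elements. CKAP5, the cell-division gene with a row that was not called (log2 fold change -0.75), held both a CHR and a CCAAT match. The match is a description of these letters in these windows, and binding was not measured.

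**Figure D5:**
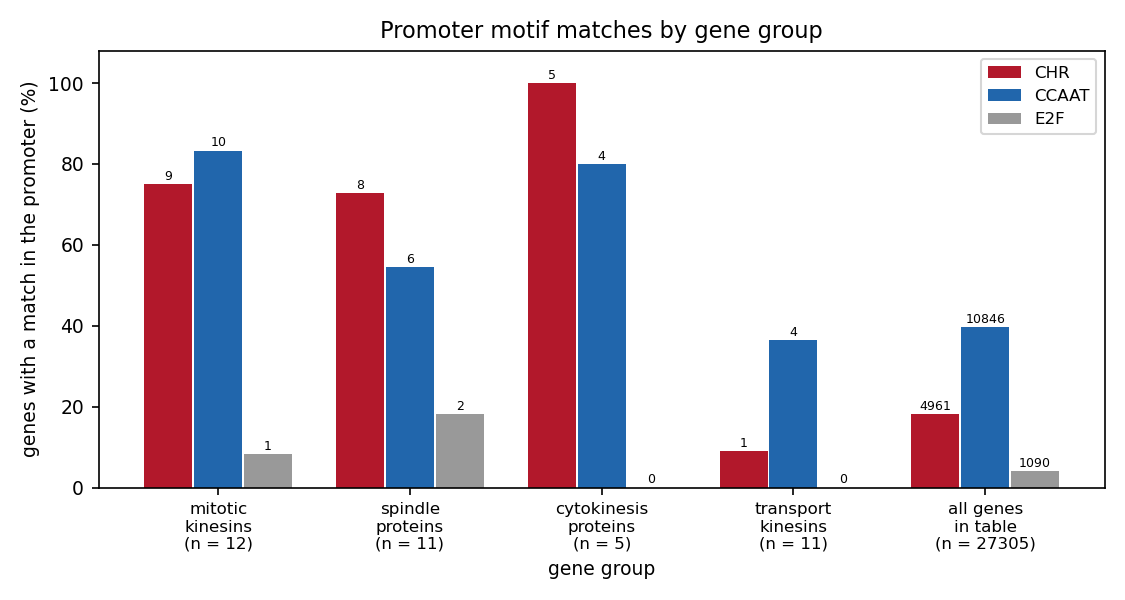
Share of genes, in percent, whose promoter window holds a CHR, a CCAAT box or an E2F site, by role, with all genes in the promoter table for comparison; bars start at 0, the number above each is the count of genes with the element, and there are no error bars, since they count genes. The CHR bar stands at 75% for mitotic kinesins and 9.09% for transport kinesins, against 18.2% for all genes.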

How the data were processed

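Poly-A RNA of 4 A549 libraries (2 per group, biological replicates per the study's methods) was sequenced. The submitters' processing notes name HISAT2 2.0.5, featureCounts 1.5.0-p3, DESeq2 1.20.0 and build hg38; the annotation release and the strand setting are not given in the sources used here. The values the authors deposited are a normalized signal, the read count divided by a size factor: 100% of values in each library came out as whole reads (within 0.05). The deposited table also holds the authors' fold change and p-values for the same comparison, which were not used beyond checking that all 6828 rows have an adjusted p under 0.05. Adjusted p-values are therefore over listed genes alone and smaller than over all genes. Gene lengths in the deposited table gave reads per kilobase.

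The main test was limma 3.58.1 (R 4.3.3; moderated with a mean trend) on log2(value + 1), for 6812 genes with a mean of at least 10, with Benjamini-Hochberg adjustment. Fold changes are on that scale, which understates those of low genes. A call needs an adjusted p under 0.05 and a fold change of at least 2. Count tests on the recovered reads used edgeR 4.0.16 and DESeq2 1.42.0. On simulated counts (6805 genes, 200 of them changed) all 3 tools recovered 100% with 0 other calls. Recovery in a table where nearly all genes differ between the groups, like the one used here, was not tested. Values by library are given for the 4 lowest and 4 highest members of each role by fold change, those of opposite sign to their role's median and up to 3 genes of each related list; KIF11, KIF22, TPX2, KIF1C, KIFC3 and MAPRE3 were added after their values were seen. All members and lists were chosen with earlier results of these data known. Gene positions of 44 of 44 members overlap the GENCODE 44 gene of the same identifier.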

Additional observations from a re-analysis of the deposited data

How the results depend on the processing

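The counts of members called stayed within 1.5 times in most settings. A count was taken as kept within 1.5 times, a median if it moved by less than its SD over the pairings of libraries. USP2-AS1 was taken as kept if its call held. By this rule, 431 of 459 values and counts that answer a comparison kept theirs, and 1 changed sign. That was the median of all genes tested with a mean of at least 50. RLE scaling, computed from the listed genes alone, moved the median log2 fold change of all genes tested by -0.12, to 0.069, and those of the roles by as much: mitotic kinesins -2.20, transport kinesins -0.42, other kinesins -1.39 and spindle proteins -2.33, with 1137 genes lower and 931 higher. DESeq2 gave 0.071 for all genes and -2.20, -0.42, -1.40 and -2.32, with 1139 and 942. Upper quartile scaling gave 0.25 for all genes and -0.24 for transport kinesins, and called 1 dynein gene, DYNLT3, higher. It also called 3 light chains and adaptors higher, with KIFAP3 (1.02) added. RLE scaling and DESeq2 each called 9 of the other spindle and microtubule genes lower, against 8 in the reported test. The log2 fold change of CDK5RAP2 reached -1.01 at its lowest among the scalings. With a mean of at least 50, no transport kinesin was higher (KIF5C leaves the test) and the median of all genes turned to -0.18. PRC1 leaves the test there too, so 5 cytokinesis proteins and 25 cell-division genes were lower. A test against a fold change of 2 (limma's treat) called 1 other kinesin and 24 of the 27 cell-division genes lower, and 523 and 541 of all genes lower and higher. With no fold threshold, 9 transport kinesins were lower and 5 higher, and 3362 and 3449 of all genes; at a threshold of 1.5, 2016 and 2124. Without KIF21A, KIF21B, KIFC2 and KIFC3, the transport median was -0.059 and the difference from the mitotic kinesins -2.03. With KIF2A and KIF24 counted among the mitotic kinesins, the mitotic median was -2.005 and the difference -1.70. Leaving out each library in turn gave medians of -2.16 to -2.001 for mitotic kinesins, -0.36 to -0.28 for transport, -1.36 to -1.18 for other kinesins, -2.26 to -2.05 for spindle, -2.14 to -1.84 for cytokinesis, -1.86 to -1.69 for the difference and 0.14 to 0.19 for all genes, 0 to 1 dynein genes higher and -2.99 to -1.78 for USP2-AS1. The test against a fold change of 2, which was not followed gene by gene, called 8 spindle proteins and 2 transport kinesins lower. In the other settings, of the members called, only KIF1A came under a fold change of 2. Its log2 fold change was -0.91 without the second shUSP2-AS1 library. Libraries of the same replicate number did not deviate together (correlation of replicate differences between the groups -0.04 over 6812 genes). Whether they were prepared as pairs is not given in the sources used here. A fit with the replicate number as a block called the same numbers. Its medians (mitotic kinesins -2.09, transport -0.30) could not move, because each replicate number occurs once in each group. Depth limits PRC1, KIF5C, KIF1A and USP2-AS1. The cause of each move was not tested.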
